A study of Mus musculus with 14 samples.

Results

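The genes described here are 39 that act in homologous recombination and in the Fanconi anemia pathway, taken by gene symbol as a fixed list. The list was chosen with earlier results of these data known, so its shares beside those of all genes are descriptions. All 39 were found by symbol among the 26270 gene identifiers of the files, and all 39 were among the 14327 genes that passed the filter on low counts. The lowest count of a gene in any library ranged from 2 to 123 across the 39 genes, with a median of 22. RNA was sequenced from mouse embryonic fibroblasts (MEFs), primary connective tissue cells grown from E13.5 embryos, in 3% O2. The groups were Tip60-/- (KO) cells at day 3 (3 libraries) and at day 5 (4 libraries), and Tip60+/+ (control) cells at day 3 (3 libraries) and at day 5 (4 libraries). Tip60, encoded by Kat5, is a lysine acetyltransferase that modifies histones and the damage kinase ATM. Deletion was induced with 250 nM 4-hydroxytamoxifen, a ligand that activates Cre recombinase fused to an estrogen receptor domain. The treatment is described in the same way for all 14 libraries, and neither the Cre driver nor the drug exposure of control cells is given separately in the sources used here.

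KO cells came from 4 embryos of litters 136, 153 and 159, and control cells from 4 embryos of litters 218 and 219, so litter and genotype cannot be told apart. KO day 3 replicates 2, 3 and 4 and KO day 5 replicates 2, 3 and 4 came from the same 3 embryos. Control day 3 replicates 1 and 2 came from the same embryo, as did control day 5 replicate 1. Another embryo gave control day 3 replicate 3 and control day 5 replicate 3. The p-values thus in part measure the spread between cultures rather than between animals. Of the 7 KO libraries 5 were male, against 1 of the 7 control libraries. Among the day 3 libraries, 2 of 3 KO libraries were male and all 3 control libraries were female. The totals were 2187168 to 39203154 counts per library, lowest in KO day 3 replicate 3 and highest in KO day 3 replicate 2. Kat5 averaged 19.9 ± 1.41 CPM (counts scaled to library size) in KO cells and 31.9 ± 0.41 CPM in control cells at day 3 (SD, n = 3 each). At day 5 it averaged 18.4 ± 1.14 CPM in KO cells and 30.9 ± 0.923 CPM in control cells (SD, n = 4 each). Control day 5 replicate 4, the male control of litter 219, stood apart from the other day 5 controls. The summed level of 10 fibroblast markers was 43886.2 to 52283.6 CPM in KO cells and 30574.8 to 35312.3 CPM in control cells at day 3, and 30155.7 to 34102.2 CPM in KO cells and 30923.5 to 46704.1 CPM in control cells at day 5. Of these 10 markers, 5 were higher and 0 lower in KO cells at day 3, and 3 were higher and 3 lower at day 5. The summed level of the cartilage markers was 2328.5 to 2725.2 CPM in KO cells and 85.1 to 178.1 CPM in control cells at day 3. At day 5 it was 1857.4 to 3840.3 CPM in KO cells and 190.1 to 2617.1 CPM in control cells, with the highest control value in replicate 4. Of the 9 cartilage markers tested, 8 were higher in KO cells at day 3 and 6 at day 5. Macrophage markers summed to 52.8 to 76.1 CPM in KO cells and 84.6 to 116.6 CPM in control cells at day 3, where 5 of 8 were lower and 0 higher. At day 5 the macrophage sums overlapped, with 1 marker higher and 2 lower. Skeletal muscle markers summed to 7.51 to 15 CPM in KO cells and 1.59 to 3.19 CPM in control cells at day 3. All 3 that were tested were higher at day 3, and 1 of the 3 at day 5. Endothelial markers summed to 20.3 to 23.0 CPM in KO cells and 14.2 to 17.8 CPM in control cells at day 3. At day 5 they summed to 16.0 to 19.6 CPM and 6.19 to 10.8 CPM in the same order. Of 6 tested, 2 were higher and 1 lower at day 3, and 2 higher and 0 lower at day 5. Neural and epithelial sums overlapped on both days. Of all genes tested, 24.6% were higher and 26.2% lower at day 3, and 26.3% and 26.2% at day 5. The part of these markers in the results below was not tested. In these bulk samples, fewer cells of a type and less RNA per cell cannot be told apart.

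Homologous recombination repairs a DNA double-strand break by copying the intact sister chromatid. The MRE11-RAD50-NBN complex, CtIP and EXO1 trim the broken end to single-stranded DNA, BRCA1-BARD1, PALB2 and BRCA2 prepare it to pair with the intact copy, and helicases and nucleases take apart the joined molecules that result. The Fanconi pathway handles crosslinks between DNA strands: a core complex attaches ubiquitin to the FANCD2-FANCI pair, which then directs nucleases and recombination to the lesion. Many of these genes are expressed mainly in S and G2 phase, when a sister chromatid is present.

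The promoters of 4 of the genes are shown because Brca2, Fanci and Fancm are among those with the clearest differences between genotypes, and Rad52 is 1 of 2 genes, with Rmi1, that were lower in KO cells at day 3. Each is the RefSeq window from 250 bases before to 50 bases after the transcription start in GRCm38.p6, 5′ to 3′ on the plus strand. Capitals mark matches, on either strand, to 3 words bound by E2F factors (TTGGCGC or TTCGCGC or TTCCCGC). The windows lie at chr5:150522371-150522670 for Brca2, chr7:79392088-79392387 for Fanci, chr12:65075353-65075652 for Fancm and chr6:119902448-119902747 for Rad52.
Brca2: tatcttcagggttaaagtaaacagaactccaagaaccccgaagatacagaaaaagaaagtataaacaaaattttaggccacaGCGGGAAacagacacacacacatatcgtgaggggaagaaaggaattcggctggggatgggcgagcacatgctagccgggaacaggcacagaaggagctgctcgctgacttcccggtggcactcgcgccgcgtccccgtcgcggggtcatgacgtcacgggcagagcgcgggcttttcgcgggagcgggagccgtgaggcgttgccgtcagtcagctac
Fanci: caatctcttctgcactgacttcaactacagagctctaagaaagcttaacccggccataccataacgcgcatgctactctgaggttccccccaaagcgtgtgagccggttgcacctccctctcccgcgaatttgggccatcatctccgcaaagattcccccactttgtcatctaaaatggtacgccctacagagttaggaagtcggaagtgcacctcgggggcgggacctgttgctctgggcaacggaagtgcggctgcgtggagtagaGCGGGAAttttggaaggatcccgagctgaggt
Fancm: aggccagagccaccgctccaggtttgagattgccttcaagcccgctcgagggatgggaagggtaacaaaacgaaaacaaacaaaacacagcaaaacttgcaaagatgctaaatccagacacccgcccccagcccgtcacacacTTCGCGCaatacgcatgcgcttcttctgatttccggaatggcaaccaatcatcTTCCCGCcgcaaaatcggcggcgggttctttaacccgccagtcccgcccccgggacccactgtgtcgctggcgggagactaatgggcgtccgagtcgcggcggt
Rad52: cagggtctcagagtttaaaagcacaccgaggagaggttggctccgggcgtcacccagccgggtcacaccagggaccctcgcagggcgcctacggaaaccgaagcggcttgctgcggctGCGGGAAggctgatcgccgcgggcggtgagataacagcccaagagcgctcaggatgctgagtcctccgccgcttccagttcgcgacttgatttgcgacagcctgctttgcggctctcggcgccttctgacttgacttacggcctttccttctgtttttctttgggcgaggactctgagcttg
A promoter window was found for 29 of the 39 genes. At least 1 of the E2F-like words was present in 14 of these 29 genes (48.3%), compared with 1819 of 10994 tested genes with a window (16.5%) and 2487 of 27025 genes with a window (9.2%). The cell cycle homology words TTTGAA and TTCGAA, which occur in promoters of genes of late cell cycle phases, were present in 4 of the 29 genes (13.8%), against 16.2% of the tested genes. The CCAAT box was present in 17 of the 29 genes (58.6%), against 43% of the tested genes. An E2F-like match and a CCAAT box shared letters in 2 of the genes (Fancf and Ube2t), and 0 genes had an E2F-like match that overlapped a cell cycle homology word. Among genes with a window, an E2F-like word was present in 8 of 14 called higher in KO cells at day 3, in both of the 2 called lower (Rad52 and Rmi1) and in 4 of 13 not called. At day 5 it was present in 4 of 10 called higher, in both of the 2 called lower and in 8 of 17 not called, so the order of the shares of higher and uncalled genes was not the same on both days. These shares are descriptions, and a match is not evidence of binding.

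At day 3, recombination and Fanconi genes were more often higher than lower in KO cells. Of the 39 genes, 18 rose (46.2%, against 24.6% of all genes tested), 2 fell (5.13%, against 26.2% of all genes tested) and 19 did not pass the test (edgeR's quasi-likelihood test, Benjamini-Hochberg adjusted p below 0.05). The median log2 fold change was 0.52 over the 39 genes and 0.00 over all genes tested. Without any test, every KO library lay above every control library for 19 of the 39 genes (28.2% of all genes), and below for 3 genes (29.6% of all genes). At day 5 the difference was smaller. Of the 39 genes, 14 rose (35.9%, against 26.3% of all genes tested), 2 fell (5.13%, against 26.2%) and 23 did not pass. The median log2 fold change at day 5 was 0.32 over the 39 genes and 0.02 over all genes tested. The KO libraries lay wholly above the control libraries for 16 of the 39 genes at day 5 (23.5% of all genes) and wholly below for 1 (23.8% of all genes).

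**Figure D1:**
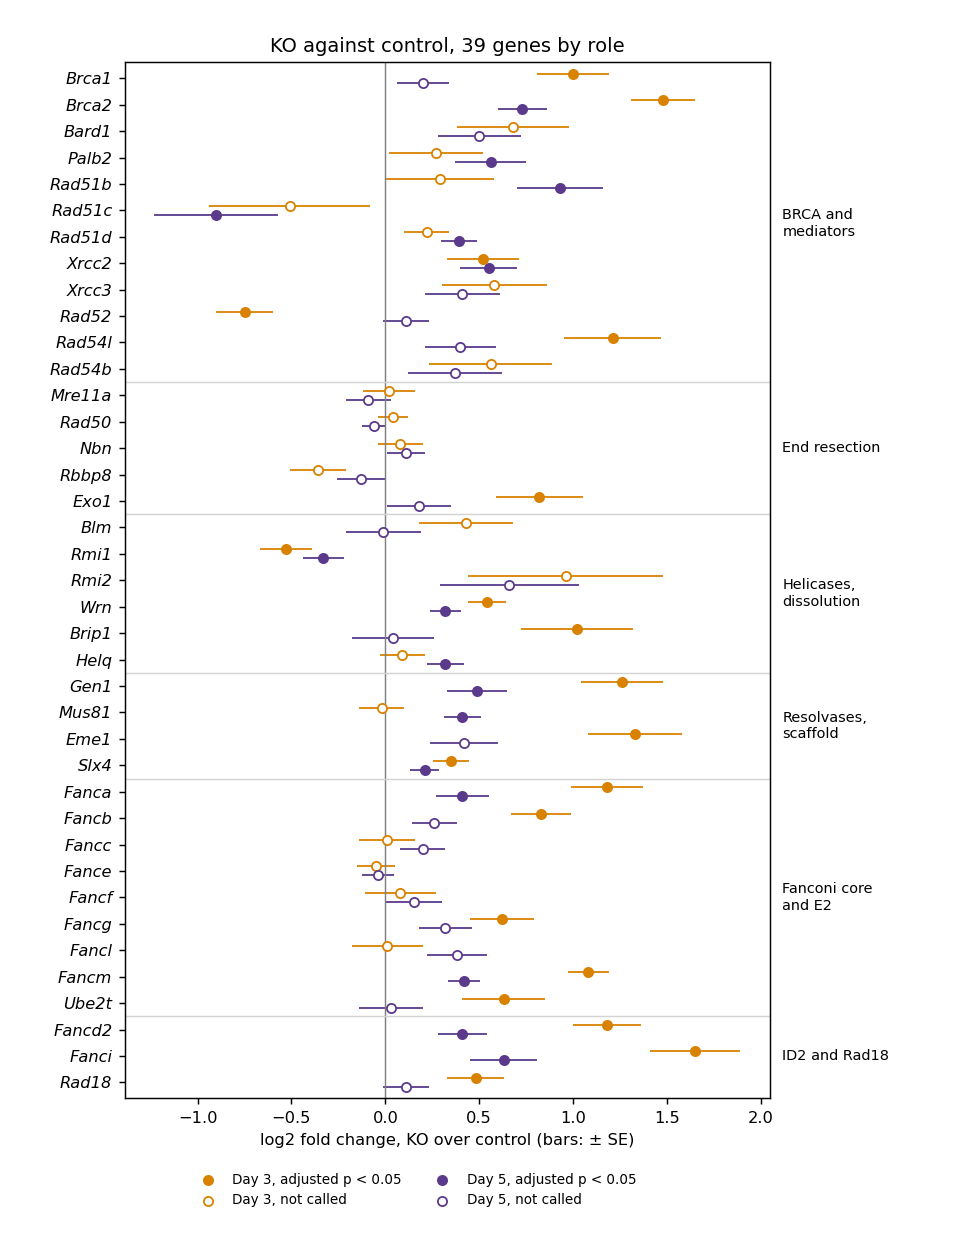
Log2 fold change, KO over control, on both days for the 39 recombination and Fanconi genes, grouped by role, with bars of 1 SE and filled points for an adjusted p below 0.05. At day 3, 18 genes rose and 2 fell, and at day 5, 14 rose and 2 fell.

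The BRCA proteins and the mediators of strand pairing hold 12 of the genes. At day 3, 4 rose and 1 fell, and at day 5, 5 rose and 1 fell. Brca2, a mediator of strand pairing that binds single-stranded DNA, had 19.7, 29.1 and 21.0 CPM in KO cells and 7.65, 7.09 and 9.15 CPM in control cells at day 3. At day 5 it had 25.9, 25.7, 27.3 and 29.6 CPM in KO cells, against 17.6, 17.6, 17.8 and 12.7 CPM in control cells. The KO and control libraries did not overlap on either day, and control day 5 replicate 4 was the lowest of its group. The log2 fold change was 1.48 ± 0.17 at day 3 (SE, adjusted p = 8.37e-06) and 0.73 ± 0.13 at day 5 (SE, adjusted p = 0.000362).

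Brca1, the ubiquitin ligase subunit that favours end resection, had 15.4, 15 and 10.7 CPM in KO cells and 7.99, 7.55 and 4.85 CPM in control cells at day 3. At day 5 Brca1 had 21.1, 24.7, 20.7 and 21.9 CPM in KO cells and 20.9, 21.5, 17.9 and 16.5 CPM in control cells. The groups were apart at day 3 and overlapped at day 5. Brca1 rose at day 3 (log2 fold change 1.00 ± 0.19, SE, adjusted p = 0.000635) and did not pass at day 5 (0.20 ± 0.14, adjusted p = 0.268). Its partner Bard1 did not pass on either day, with log2 fold changes of 0.68 (adjusted p = 0.0667) and 0.50 (adjusted p = 0.0715). Palb2, which bridges BRCA1 and BRCA2, passed at day 5 and not at day 3, with a day 5 mean of 5.56 ± 0.587 CPM in KO cells and 3.72 ± 0.598 CPM in control cells (SD, n = 4 each; adjusted p = 0.0228). The difference between its day 5 and day 3 effects did not pass (adjusted p = 0.906), nor did the day 5 value of Palb2 without KO replicate 3 or 4 or control replicate 3 (adjusted p up to 0.0603).

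Of Rad51b, Rad51c, Rad51d, Xrcc2 and Xrcc3, related genes whose proteins work as complexes in recombination, 3 rose at day 5. Rad51d had 18.3, 18.1, 21.6 and 20.9 CPM in KO cells and 15.3, 13.6, 14.7 and 16.7 CPM in control cells at day 5, with no overlap. At day 3 Rad51d had 18.6, 20.2 and 18.7 CPM in KO cells and 16.9, 14.5 and 17.6 CPM in control cells. Its log2 fold change was 0.39 ± 0.096 at day 5 (SE, adjusted p = 0.00368) and 0.22 ± 0.12 at day 3 (SE, adjusted p = 0.126), so a separation of the libraries at day 3 did not come with a call. Xrcc2, whose protein binds that of Rad51d, had 8.26, 7.51 and 6.64 CPM in KO cells and 6.39, 3.97 and 5.6 CPM in control cells at day 3. At day 5 Xrcc2 had 11.9, 11.6, 13.3 and 13.3 CPM in KO cells and 9.65, 9.45, 8.31 and 6.76 CPM in control cells. Xrcc2 rose on both days without overlap, by 0.52 ± 0.19 (adjusted p = 0.0375) and 0.55 ± 0.15 (adjusted p = 0.00709) on the log2 scale (SE). The day 3 call of Xrcc2 did not pass without KO day 3 replicate 2 or 3 or without control day 3 replicate 2 or 3 (adjusted p from 0.056 to 0.187).

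Rad51b was among the lowest of the 39 genes per length, so its values rest on few counts. Its day 5 libraries had 2.8, 2.34, 3.35 and 3.26 CPM in KO cells, against 1.48, 2.02, 1.63 and 1.02 CPM in control cells. At day 3 it had 2.32, 2.35 and 2.42 CPM in KO cells and 2.4, 1.95 and 1.49 CPM in control cells. The groups were apart at day 5 (log2 fold change 0.93 ± 0.23, SE, adjusted p = 0.00399) and overlapped at day 3 (0.29 ± 0.29, SE, adjusted p = 0.423). Rad51c, whose protein is shared by the complexes of this family, went the other way: it averaged 1.67 ± 0.733 CPM in KO cells and 3.22 ± 0.825 CPM in control cells at day 5 (SD, n = 4 each). Its log2 fold change was -0.90 (adjusted p = 0.0316), although the libraries overlapped. Rad51c did not pass at day 5 without KO replicate 1, 2 or 4 or without control replicate 1 or 3 (adjusted p up to 0.0954). Xrcc3, whose protein pairs with that of Rad51c, did not pass on either day (log2 fold changes 0.58 and 0.41).

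Rad52, which anneals single strands and works beside BRCA2 in mammalian cells, was lower in KO cells at day 3. It had 11.2, 10.3 and 9.06 CPM in KO cells and 15.8, 19.3 and 16.7 CPM in control cells at day 3, with no overlap. At day 5 it had 10.2, 11.8, 11.3 and 14.5 CPM in KO cells and 11, 10.0, 11.6 and 11.8 CPM in control cells, and the groups overlapped. The log2 fold change was -0.75 ± 0.15 at day 3 (SE, adjusted p = 0.000861) and 0.11 ± 0.12 at day 5 (SE, adjusted p = 0.474). Rad54l, a motor protein of strand invasion, averaged 5.93 ± 2.74 CPM in KO cells and 2.9 ± 0.667 CPM in control cells at day 3 (SD, n = 3 each; log2 fold change 1.21, adjusted p = 0.00136). Its exons share 1184 bases with Lrrc41 on the opposite strand, and Lrrc41 had a log2 fold change of -0.12 at day 3. The related Rad54b, whose exons share 2068 bases with Fsbp on the same strand, did not pass on either day (log2 fold changes 0.56 and 0.37).

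**Figure D2:**
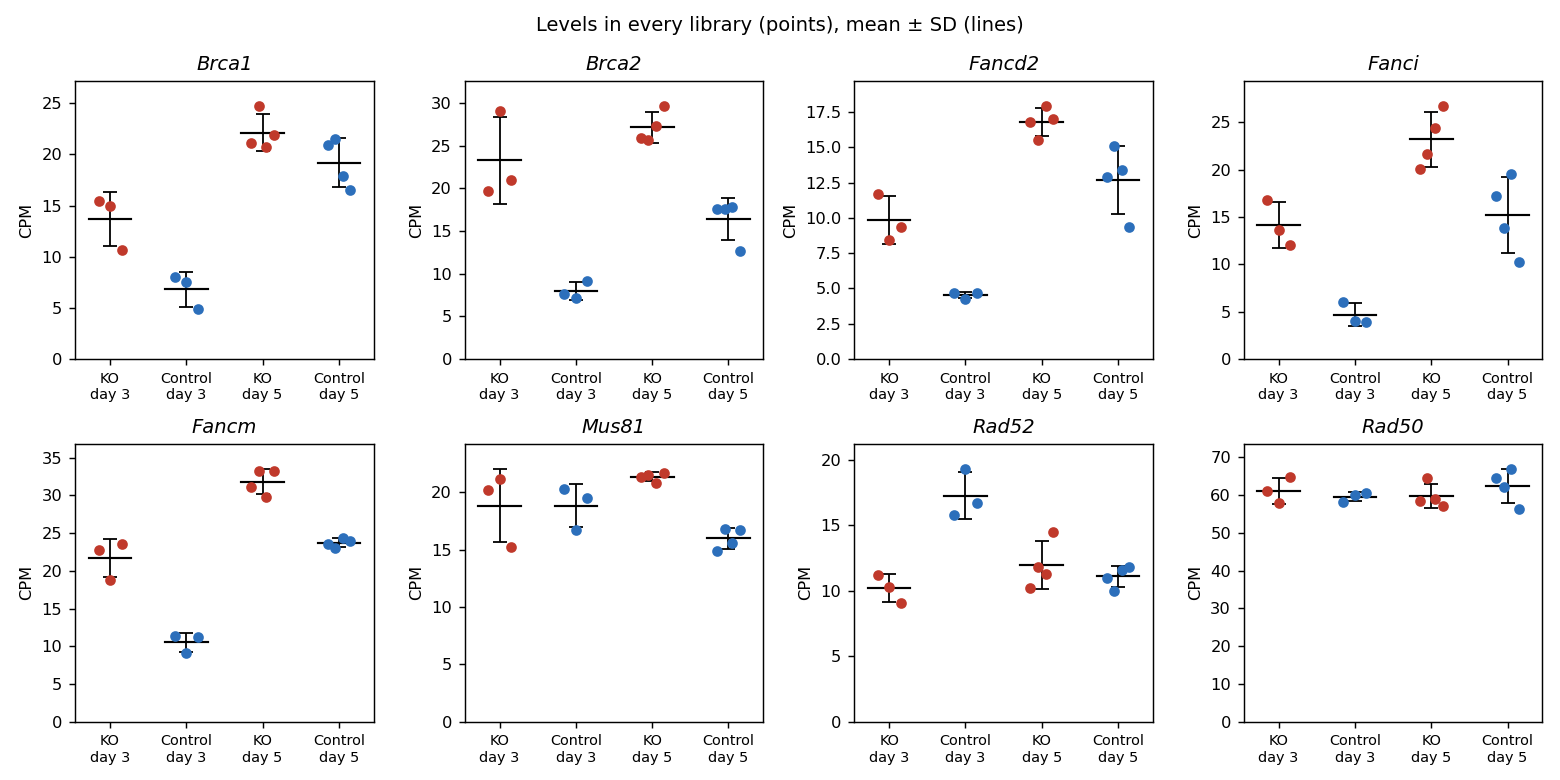
CPM of 8 genes in each library, with KO left of control at each day, points for libraries and bars for the mean and SD. Brca2 and Fancm were apart between the genotypes on both days, and Rad50 lay between 56.2 and 66.8 CPM in all 14 libraries.

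End resection was the group with the fewest differences, with 1 of 5 genes called at day 3 and 0 at day 5. Rad50, the ATPase that tethers broken ends, averaged 61.1 ± 3.48 CPM in KO cells and 59.6 ± 1.21 CPM in control cells at day 3 (SD, n = 3 each). The day 5 means were 59.7 ± 3.19 CPM in KO cells and 62.4 ± 4.53 CPM in control cells (SD, n = 4 each), so the genotypes overlapped on both days. The nuclease gene Mre11a had log2 fold changes of 0.02 and -0.09 at day 3 and day 5, and Nbn, which recruits ATM, had 0.08 and 0.11. None of these 3 passed the test on either day (adjusted p from 0.353 to 0.944). Per kilobase, Nbn (18.7 CPM per kb in KO cells and 17.4 CPM per kb in control cells at day 5) and Rad50 (11.6 CPM per kb in KO cells and 12.1 CPM per kb in control cells) were the highest of the 39 genes. Rbbp8, which encodes CtIP, had log2 fold changes of -0.36 (adjusted p = 0.0674) and -0.13 (adjusted p = 0.429). Exo1, the exonuclease for long-range resection, was the gene of the group that rose, averaging 8.16 ± 1.91 CPM in KO cells and 4.75 ± 0.587 CPM in control cells at day 3 (SD, n = 3 each; log2 fold change 0.82, adjusted p = 0.00743). Without KO day 3 replicate 2 the Exo1 difference did not pass (adjusted p = 0.107).

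Among the 6 genes for helicases and for dissolution of joined molecules, 2 rose and 1 fell on each day. Wrn, the helicase lost in Werner syndrome, had 32.8, 39.5 and 34.7 CPM in KO cells and 24, 23.8 and 24.6 CPM in control cells at day 3. At day 5 Wrn had 35.2, 37.9, 38.8 and 38.3 CPM in KO cells and 27.6, 27.9, 29.8 and 35.0 CPM in control cells. Every KO library was above every control library on both days, and control day 5 replicate 4 came closest to the KO range. The log2 fold change of Wrn was 0.54 ± 0.10 at day 3 (SE, adjusted p = 0.000557) and 0.32 ± 0.083 at day 5 (SE, adjusted p = 0.00515).

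Blm, the helicase lost in Bloom syndrome, had 18, 10.3 and 10.7 CPM in KO cells and 13, 9.97 and 8.12 CPM in control cells at day 3. At day 5 Blm had 18, 18.8, 18.6 and 19.3 CPM in KO cells and 20.3, 22.4, 20.2 and 12.1 CPM in control cells. The groups overlapped on both days, with log2 fold changes of 0.43 ± 0.25 (SE, adjusted p = 0.167) and -0.01 ± 0.20 (SE, adjusted p = 0.981). Rmi1, which joins BLM to topoisomerase in the dissolvasome, was lower in KO cells on both days. It had 10.9, 8.45 and 11.4 CPM in KO cells and 14.6, 15.9 and 15.4 CPM in control cells at day 3, and 11.4, 12.3, 11.6 and 10.1 CPM in KO cells and 13.5, 14.3, 17.3 and 12.4 CPM in control cells at day 5. The ranges were apart on both days, and the log2 fold changes were -0.53 ± 0.14 (SE, adjusted p = 0.00559) and -0.33 ± 0.11 (SE, adjusted p = 0.0256). The day 5 value of Rmi1 did not pass with a sex term (adjusted p = 0.112) or without KO replicate 4 or control replicate 2 or 3 (adjusted p up to 0.0834). Rmi1 shares 330 exon bases with Hnrnpk on the opposite strand, and Hnrnpk had a log2 fold change of -0.32 at day 3 (adjusted p = 0.0241). Rmi2, the lowest of the 39 genes per kilobase, did not pass on either day. Brip1, the helicase that binds BRCA1, rose at day 3, averaging 8.88 ± 1.01 CPM in KO cells and 4.49 ± 2.12 CPM in control cells (SD, n = 3 each; log2 fold change 1.02, adjusted p = 0.0121). At day 5 Brip1 had a log2 fold change of 0.04, and leaving out KO replicate 2 or control replicate 3 ended its day 3 call (adjusted p up to 0.0657). Helq, a helicase of crosslink repair, rose at day 5 (log2 fold change 0.32, adjusted p = 0.0127) and had 0.09 at day 3.

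All 4 genes for resolvases and their scaffold rose on at least 1 day, 3 of them at day 3 and 3 at day 5. Gen1, the nuclease that cuts four-way junctions, had 9.31, 7.98 and 8.15 CPM in KO cells and 4.68, 3.35 and 2.89 CPM in control cells at day 3. At day 5 Gen1 had 16.5, 15.3, 16.3 and 18 CPM in KO cells and 13.1, 11.8, 14.2 and 8.15 CPM in control cells. The KO range was above the control range on both days, by 1.26 ± 0.22 (adjusted p = 0.000266) and 0.49 ± 0.16 (adjusted p = 0.0166) on the log2 scale (SE). Eme1, the partner of MUS81, had 5.49, 4.7 and 4.33 CPM in KO cells and 1.94, 1.79 and 2.15 CPM in control cells at day 3 (log2 fold change 1.33 ± 0.25, SE, adjusted p = 0.000565). At day 5 Eme1 had 7.0, 9.45, 7.62 and 10.3 CPM in KO cells and 6.69, 7.68, 6.84 and 4.44 CPM in control cells, which overlapped (adjusted p = 0.0649). Eme1 shares 221 exon bases with Lrrc59 and 75 with Mrpl27, both on the opposite strand. The day 3 log2 fold changes were -0.50 for Lrrc59 (adjusted p = 0.00325) and 0.64 for Mrpl27 (adjusted p = 0.00312).

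Mus81 itself, the catalytic subunit, had 20.2, 21.1 and 15.2 CPM in KO cells and 20.3, 16.7 and 19.5 CPM in control cells at day 3. At day 5 Mus81 had 21.3, 21.5, 20.8 and 21.7 CPM in KO cells and 14.9, 16.8, 15.6 and 16.7 CPM in control cells. The genotypes overlapped at day 3 (log2 fold change -0.02 ± 0.12, SE, adjusted p = 0.913) and were apart at day 5 (0.41 ± 0.099, SE, adjusted p = 0.00311). Mus81 and Eme1 form 1 nuclease, and on each day only 1 of the pair passed. At day 5 all 4 genes of this group, Eme1 included, had positive log2 fold changes, from 0.21 to 0.49. The day 5 calls thus do not show that the effects on Mus81 and Eme1 differed. Mus81 lies on chromosome 19, 114.6 kb from Kat5, the gene deleted in these cells. It shares 173 exon bases with Efemp2 on the opposite strand. Efemp2 had log2 fold changes of 0.48 at day 3 (adjusted p = 0.0026) and 0.09 at day 5 (adjusted p = 0.456). Slx4, the scaffold that binds several nucleases, averaged 37.4 ± 1.55 CPM in KO cells and 29.3 ± 1.32 CPM in control cells at day 3 (SD, n = 3 each; log2 fold change 0.35, adjusted p = 0.00649). Its day 5 difference was 0.21 on the log2 scale (adjusted p = 0.0375). At day 5 Slx4 did not pass with DESeq2 (adjusted p = 0.0515), or without KO day 5 replicate 2, control day 5 replicate 1, 2 or 4, or control day 3 replicate 3 (adjusted p up to 0.133).

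The Fanconi core complex and its E2 enzyme hold 9 genes, of which 5 rose at day 3 and 2 at day 5, with none lower. Fancm, the translocase that anchors the core complex to DNA, had 22.7, 18.8 and 23.5 CPM in KO cells and 11.3, 9.11 and 11.2 CPM in control cells at day 3. At day 5 Fancm had 31.1, 33.2, 29.8 and 33.2 CPM in KO cells and 23.6, 23.0, 24.4 and 23.9 CPM in control cells. The libraries of each group lay close together and the genotypes were apart on both days. Its log2 fold change of 1.08 ± 0.11 at day 3 had the smallest adjusted p of the 39 genes (SE, adjusted p = 2.82e-06), and at day 5 it was 0.42 ± 0.084 (SE, adjusted p = 0.000769).

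Fanca, a scaffold of the core complex, had 16.1, 12.2 and 11.8 CPM in KO cells and 5.82, 6.46 and 5.88 CPM in control cells at day 3. At day 5 Fanca had 23.7, 27.0, 26.2 and 26.4 CPM in KO cells and 21.9, 22.5, 19.2 and 13.7 CPM in control cells. The KO libraries were higher on both days, with log2 fold changes of 1.18 ± 0.19 (SE, adjusted p = 0.00014) and 0.41 ± 0.14 (SE, adjusted p = 0.0227). Without KO day 5 replicate 2 the day 5 difference did not pass (adjusted p = 0.0502). Fanca shares 920 exon bases with Zfp276 on the opposite strand, and Zfp276 had log2 fold changes of -0.42 (adjusted p = 0.00962) and 0.27 (adjusted p = 0.0328). Fancb, a core subunit needed for the ligase, had 6.2, 6.58 and 6.54 CPM in KO cells and 3.77, 3.58 and 3.45 CPM in control cells at day 3. At day 5 Fancb had 11.5, 11.5, 12.4 and 12.3 CPM in KO cells and 12, 10.1, 9.61 and 8.0 CPM in control cells. The groups were apart at day 3 (log2 fold change 0.83 ± 0.16, SE, adjusted p = 0.000805) and overlapped at day 5 (0.26 ± 0.12, SE, adjusted p = 0.0815).

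Fancg, another core subunit, rose at day 3 (log2 fold change 0.62, adjusted p = 0.00799). Ube2t, the E2 enzyme that carries the ubiquitin, also rose at day 3 (log2 fold change 0.63, adjusted p = 0.0255) and had a log2 fold change of 0.03 at day 5. The day 3 value of Ube2t did not pass without KO replicate 2 or 4 or control replicate 1 or 3 (adjusted p up to 0.161). The other core genes, Fancc, Fance, Fancf and the ligase gene Fancl, did not pass on either day. Their day 3 log2 fold changes were 0.01, -0.05, 0.08 and 0.01 in that order, and the day 5 value of Fancl was 0.38 (adjusted p = 0.0563). Fancl shares 462 exon bases with Vrk2 on the opposite strand, and Vrk2 had a day 5 log2 fold change of 0.35 (adjusted p = 0.0122).

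The pair that receives the ubiquitin rose on both days. Fanci had 16.8, 13.6 and 12.1 CPM in KO cells and 6.05, 4.05 and 3.92 CPM in control cells at day 3. At day 5 Fanci had 20.1, 21.7, 24.4 and 26.7 CPM in KO cells and 17.2, 13.8, 19.6 and 10.3 CPM in control cells. The ranges were apart on both days, most clearly at day 3, where the KO level was 3.13 times the control level (1.65 ± 0.24 on the log2 scale, SE, adjusted p = 8.11e-05). At day 5 the log2 fold change was 0.63 ± 0.18 (SE, adjusted p = 0.00927). Fanci shares 921 exon bases with Polg on the opposite strand, and Polg had log2 fold changes of 0.03 (adjusted p = 0.751) and 0.13 (adjusted p = 0.137).

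Fancd2 had 11.7, 8.45 and 9.36 CPM in KO cells and 4.68, 4.28 and 4.67 CPM in control cells at day 3. At day 5 Fancd2 had 16.8, 15.5, 17.9 and 17.0 CPM in KO cells and 12.9, 15.1, 13.4 and 9.38 CPM in control cells. The KO libraries lay above the control libraries on both days, narrowly at day 5. The log2 fold changes were 1.18 ± 0.18 (SE, adjusted p = 0.000105) and 0.41 ± 0.13 (SE, adjusted p = 0.0201), and without KO day 5 replicate 3 the day 5 value had an adjusted p of 0.0551. Rad18, a ubiquitin ligase of damage bypass that assists FANCD2 loading, averaged 15.4 ± 2.9 CPM in KO cells and 11.5 ± 1.64 CPM in control cells at day 3 (SD, n = 3 each; log2 fold change 0.48, adjusted p = 0.0171). At day 5 its log2 fold change was 0.11 (adjusted p = 0.45), and at day 3 Rad18 did not pass without KO replicate 2 or control replicate 2 or 3 (adjusted p up to 0.189).

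The calls at day 3 and day 5 were compared by the test of the difference between the KO effects. By calls alone, 9 genes rose on both days (Brca2, Fanca, Fancd2, Fanci, Fancm, Gen1, Slx4, Wrn and Xrcc2), 9 passed upward only at day 3 and 5 only at day 5. The matching shares of all genes tested were not computed, so these counts describe the 39 genes only. The difference itself passed for 7 of the 39 genes, 1 higher (7.16% of all genes tested were higher) and 6 lower at day 5 than at day 3 (7.15% of all genes tested were lower). The 6 whose KO effect was smaller at day 5 were Fancm (-0.65 ± 0.14, adjusted p = 0.00633), Brca2 (-0.76 ± 0.21, adjusted p = 0.0289), Fancd2 (-0.77 ± 0.22, adjusted p = 0.0342), Brca1 (-0.81 ± 0.24, adjusted p = 0.0376), Fanci (-1.02 ± 0.30, adjusted p = 0.038) and Fanca (-0.77 ± 0.23, adjusted p = 0.0399), on the log2 scale with SE. The gene whose effect was higher at day 5 was Rad52 (0.86 ± 0.19, adjusted p = 0.0097). This count depended on single libraries: it was 14 without control day 5 replicate 4 and 2 without KO day 5 replicate 1 or without control day 5 replicate 1. It was 3 without KO day 3 replicate 2, control day 3 replicate 2 or 3, or control day 5 replicate 2 or 3, and 4 without KO day 5 replicate 2, 3 or 4. Fancm and Rad52 passed under every alternative tried, while each of the other 5 failed without at least 1 library, with adjusted p up to 0.0823 for Brca2, 0.133 for Brca1, 0.154 for Fanca, 0.126 for Fancd2 and 0.125 for Fanci. With the libraries of 1 embryo summed, Brca2 (adjusted p = 0.056), Fanca (adjusted p = 0.0644) and Fancd2 (adjusted p = 0.0557) did not pass either, and 4 genes did. For the genes called on 1 day only and not among these 7, a difference between the days was not shown.

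Time in culture was compared within each genotype. Of the 39 genes, 13 were called higher at day 5 in both, 1 in KO cells only (Palb2) and 8 in control cells only. For this overlap, too, the shares of all genes tested were not computed. In KO cells, 14 of the 39 genes were higher at day 5 than at day 3 and 0 lower (4.98% and 7.06% of all genes tested). In control cells, 21 were higher and 1 lower (18.3% and 19.9% of all genes tested). The median log2 change was 0.37 in KO cells and 0.70 in control cells, and the difference between the genotypes in this change is the same contrast as the difference between the KO effects above. Fancm changed by 0.52 ± 0.095 in KO cells (SE, adjusted p = 0.00247) and by 1.18 ± 0.10 in control cells (SE, adjusted p = 9.49e-07). Fanca changed by 0.90 ± 0.16 in KO cells (SE, adjusted p = 0.00227) and by 1.67 ± 0.17 in control cells (SE, adjusted p = 5.1e-06). Both genes were at their lowest in day 3 control libraries and at their highest in day 5 KO libraries. Fancb changed by 0.90 ± 0.14 in KO cells (SE, adjusted p = 0.000925) and by 1.47 ± 0.15 in control cells (SE, adjusted p = 3.98e-06), and Gen1 by 0.93 ± 0.18 (SE, adjusted p = 0.00432) and 1.70 ± 0.20 (SE, adjusted p = 1.47e-05) in the same order. Rad52 was the gene that fell in control cells, by 0.65 on the log2 scale (adjusted p = 0.00154), with a change of 0.21 in KO cells (adjusted p = 0.369). The count in KO cells was 5 without KO day 3 replicate 4, 8 without KO day 5 replicate 4, and 9 without KO day 3 replicate 3, KO day 5 replicate 2 or KO day 5 replicate 3. With the embryo as a block, Brca2 passed in KO cells (adjusted p = 0.038), and the Fanca difference between the KO effects did not (adjusted p = 0.0551).

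**Figure D3:**
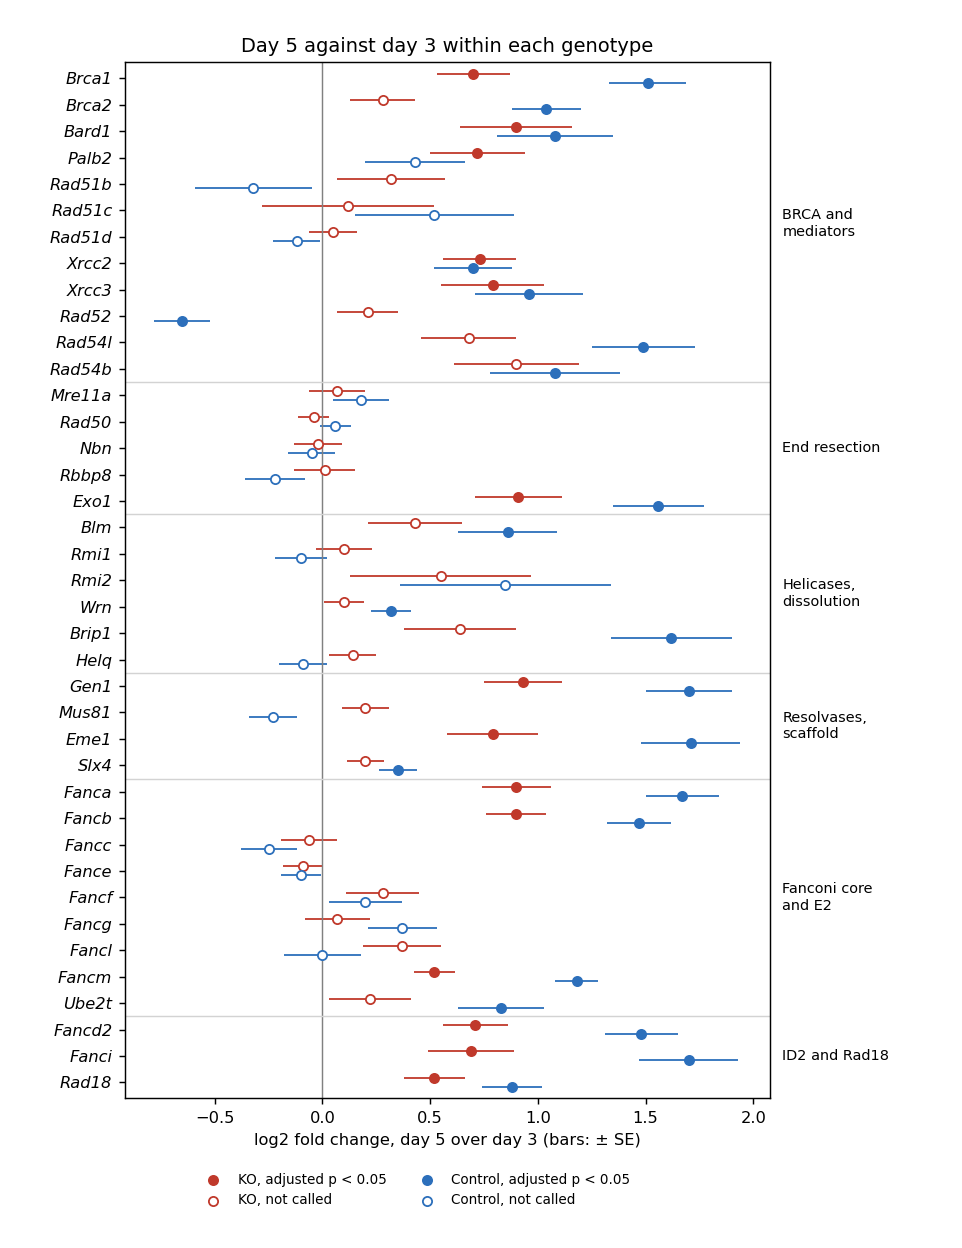
Log2 change from day 3 to day 5 of the 39 genes in KO cells and in control cells, with filled points for an adjusted p below 0.05 and bars of 1 SE. In KO cells 14 genes were higher at day 5, and in control cells 21 were higher and 1 was lower.

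Genes of the cell cycle were followed beside the recombination genes. Of 22 S phase genes tested, 8 rose and 1 fell in KO cells at day 3, and 0 rose and 6 fell at day 5. Of 22 genes of G2 and mitosis, 15 rose and 0 fell at day 3, and 0 rose and 6 fell at day 5. The day 3 rises are 36.4% of the S phase list and 68.2% of the G2 and mitosis list. They compare with 24.6% of all genes tested and 46.2% of the 39 genes. The 6 that fell at day 5 are 27.3% of each list, near the 26.2% of all genes tested that were lower. The median log2 fold changes were 0.30 and -0.18 for S phase and 0.65 and -0.28 for G2 and mitosis, at day 3 and day 5. With time in culture, genes of both lists rose too. Between day 3 and day 5, 15 S phase genes (68.2%) and 19 of G2 and mitosis (86.4%) rose in KO cells. Control cells had 21 (95.5%) and 22 (100%) higher, and 0 were lower in either genotype. Median changes of the lists were 0.56 and 0.89 in KO cells, and 1.25 and 1.81 in control cells. For the 39 genes they were 0.37 and 0.70. By the test of the difference between the KO effects, 6 S phase genes (27.3%) and 13 of G2 and mitosis (59.1%) had a lower effect at day 5. In both lists 0 had a higher effect. The median differences were -0.60 and -0.94, against -0.19 for the 39 genes, of which 15.4% were lower. At day 5, 14 of the 39 recombination and Fanconi genes were higher in KO cells (35.9%). The differences between the counts of the 39 genes and those of the cell cycle lists were not tested.

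The summed level of the 39 genes was 602.5, 558.4 and 535.3 CPM in KO cells and 489.7, 449.1 and 452.5 CPM in control cells at day 3. At day 5 it was 676.7, 714.0, 705.6 and 720.4 CPM in KO cells and 620.5, 645.3, 645.0 and 527.6 CPM in control cells. In this sum KO libraries were higher on both days without overlap. The S phase sum at day 3 was 569.7 to 793.8 CPM in KO cells and 518.5 to 567.9 CPM in control cells. The G2 and mitosis sum at day 3 was 648.2 to 1021.8 CPM in KO cells and 460.3 to 634.7 CPM in control cells. Both cell cycle sums were thus also higher in every KO library at day 3, narrowly for S phase. The S phase sum at day 5 was 1025.0 to 1091.1 CPM in KO cells and 882.4 to 1389.8 CPM in control cells. The G2 and mitosis sum at day 5 was 1337.5 to 1477.4 CPM in KO cells and 1222.5 to 1925.3 CPM in control cells. In both cell cycle sums the lowest value of all day 5 libraries was control replicate 4, and the other 3 controls were above every KO library. The ratio of the sum of the 39 genes to the S phase sum was 0.66, 0.685, 0.658 and 0.66 in KO cells and 0.453, 0.464, 0.491 and 0.598 in control cells at day 5. At day 3 the ratio was 0.759, 0.857 and 0.94 in KO cells and 0.862, 0.831 and 0.873 in control cells. The genotypes were apart in this ratio at day 5, including replicate 4, and overlapped at day 3. The sum includes genes that overlapped between genotypes. The 5 end resection genes gave 178.5 to 191.5 CPM of it in KO cells and 154.5 to 205.8 CPM in control cells at day 5. Such a part raises the ratio wherever the S phase sum is lower, and its share in the day 5 ratio was not tested. The part of the cell cycle in the differences of single genes was not tested.

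**Figure D4:**
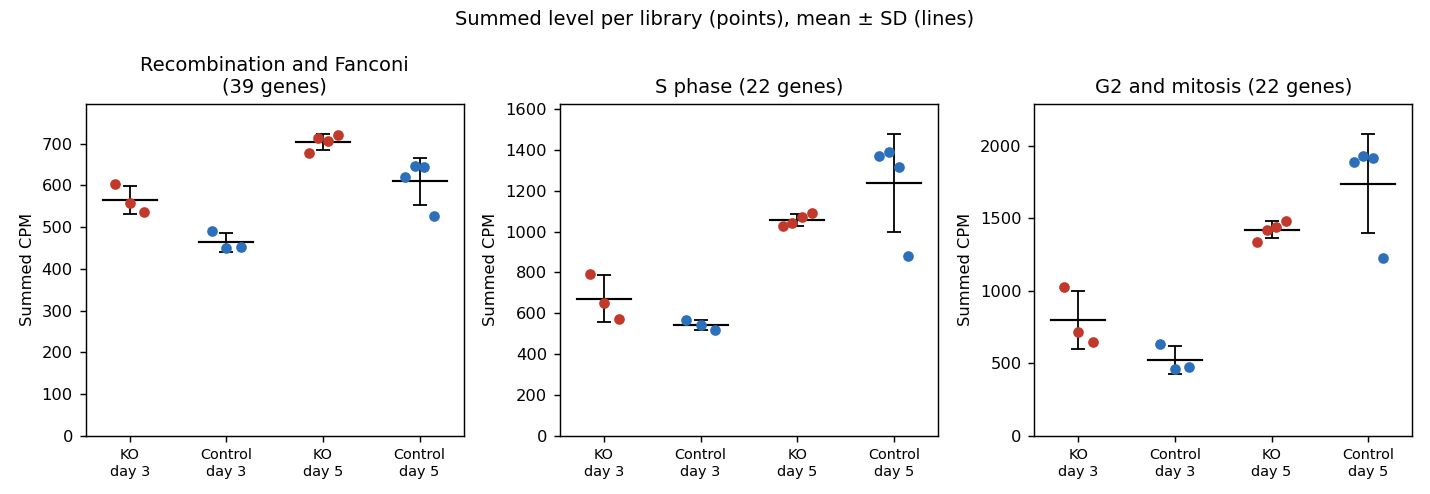
Summed CPM of the 39 recombination and Fanconi genes, of 22 S phase genes and of 22 genes of G2 and mitosis in each library, with KO left of control at each day, points for libraries and bars for the mean and SD. At day 5 the 39 genes summed to 676.7 to 720.4 CPM in KO libraries and 527.6 to 645.3 CPM in control libraries.

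Other genes of recombination and double-strand break repair were listed separately, and 49 of 52 were tested. At day 3, 19 rose and 7 fell (38.8% and 14.3%), and at day 5, 16 rose and 7 fell (32.7% and 14.3%), with medians of 0.18 and 0.16. Polq, the polymerase of alternative end joining, rose at day 3 (log2 fold change 1.40 ± 0.20, SE, adjusted p = 5.17e-05), as did Recql, a helicase of the same family as BLM and WRN (1.11 ± 0.093, SE, adjusted p = 6.62e-07). Eme2, the alternative partner of MUS81, averaged 17.7 ± 1.21 CPM in KO cells and 9.23 ± 1.86 CPM in control cells at day 5 (SD, n = 4 each; log2 fold change 0.92 ± 0.13, SE, adjusted p = 7.09e-05). Swi5 and Sfr1, which form a complex of recombination, were both lower in KO cells. Swi5 averaged 112.6 ± 8.52 CPM in KO cells and 158.0 ± 5.2 CPM in control cells at day 5 (SD, n = 4 each; adjusted p = 2.96e-05). Sfr1 averaged 155.8 ± 11.8 CPM in KO cells and 263.9 ± 14.6 CPM in control cells at day 5 (SD, n = 4 each; adjusted p = 6.22e-05). Rpa1, the largest subunit of the protein that coats single-stranded DNA, was higher in KO cells at day 3 (log2 fold change 0.35, adjusted p = 0.00461) and lower at day 5 (-0.45 ± 0.074, SE, adjusted p = 0.000159), and the difference between these effects passed (adjusted p = 0.000674).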

How the data were processed

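Per the labels' protocols, stranded mRNA libraries were read from both ends at 80 bp. Per the submitters' processing notes, the authors counted reads per gene with featureCounts on mm10. The aligner, annotation release, strand setting and versions are not given in the sources used, so reads of a gene and of an overlapping gene cannot be told apart. The deposited values are raw counts. Of 27179 lines per file, 909 without an identifier (0.194% to 0.315% of counts) were left out, as were 112 sex-linked genes (Xist, Tsix and the Y chromosome) from the tests.

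One fit of 14 libraries was made with edgeR 4.0.16 in R 4.3.3 (1 mean per group, robust quasi-likelihood, low counts removed by filterByExpr, TMM scaling). P-values were Benjamini-Hochberg adjusted over all 14327 genes, with calls at an adjusted p below 0.05. CPM used TMM-scaled totals. SE is the absolute log2 fold change over the square root of F, and does not include edgeR's bound that raises some p-values of low genes. The totals of 2187168 to 39203154 counts set the precision. Exon overlaps come from GENCODE M21. The method was tested on simulated data.

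The 39 genes and all other lists were chosen with earlier results of these data known. Every one of the 39 genes may be named. Values per library are given for the 8 called genes of smallest adjusted p at each day, for 4 in each other contrast, for Brca1, Brca2, Fancd2 and Blm, and for Rmi1, which was added after its values were seen. Numbers shared by KO and control libraries do not pair them: same-numbered deviations correlated from -0.166 to 0.428. Pairing by embryo between days comes from the labels, with same-embryo correlations from -0.0229 to 0.204. Alternatives were DESeq2 1.42.0, its RLE scaling, other filters, fits of the compared groups only, a sex term, a replicate block in edgeR, an embryo block in limma 3.58.1, leaving out each library, and summing libraries of 1 embryo. The embryo block thus also changed the test, and its estimated correlation within embryos was 0.0395. 1 result of a gene outside the list is not reported here.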

Additional observations from a re-analysis of the deposited data

Results flagged for a closer look

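Of 84 groups of 4 libraries examined, 6 held a library farther from the others than Dixon's 95% critical value, which chance gives in about 1 of 20 groups. In control day 5 cells, 4 of these were replicate 4: Brca2 at 12.7 CPM against 17.6 to 17.8 CPM in the other 3, Ube2t at 4.44 CPM against 6.64 to 6.84 CPM, the S phase sum at 882.4 CPM against 1313.9 to 1389.8 CPM, and the G2 and mitosis sum at 1222.5 CPM against 1889.5 to 1925.3 CPM. In KO day 5 cells, replicate 2 had 15.1 CPM of Brip1 against 13.5 to 13.7 CPM in the other 3, and 49.9 CPM of Slx4 against 39.8 to 41.4 CPM.

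The KO effect differed between the days, by the test of the difference itself, for 7 of the 39 genes. The log2 difference of the effects, day 5 minus day 3, was -0.81 for Brca1, -0.76 for Brca2, -0.77 for Fanca, -0.65 for Fancm, -0.77 for Fancd2, -1.02 for Fanci and 0.86 for Rad52.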

How the results depend on the processing

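Of 1947 alternative values for 85 results on single genes, 1796 kept direction and side of the threshold, 140 no longer passed, 4 newly passed and 7 changed sign. The 7 were all Blm at day 5, which was not called: 0.28 with a sex term, 0.03 with the replicate block, 0.02 with the embryo block, 0.01 without KO day 5 replicate 1, and 0.03, 0.10 and 0.02 without control day 5 replicates 1, 2 and 3 (-0.17 without replicate 4). Calls held under every alternative for 15 of 20 genes at day 3, 10 of 16 at day 5, 2 of 7 in the difference (Fancm and Rad52), 5 of 14 over time in KO cells and 21 of 22 in control cells. Leaving out 1 library at a time gave 13 to 19 genes higher (18 with all libraries) and 2 to 3 lower at day 3, 12 to 16 higher (14 with all) and 0 to 2 lower at day 5, 2 to 14 in the difference (7 with all), 5 to 17 over time in KO cells (14 with all) and 21 to 22 over time in control cells. At day 5, 1 gene was lower with the compared groups only and 1 with a sex term, and the difference passed for 4 genes with libraries of 1 embryo summed. With the replicate block, 19 genes were higher at day 3, 14 at day 5, and 11 changed over time in KO cells, where Bard1, Palb2, Xrcc3 and Fanci no longer passed. With the embryo block these counts were 19, 18 and 16. A sex term gave 20 higher at day 5. The cause of these shifts was not tested. Low counts limit Rmi2, Rad51b, Rad51c and Palb2. Litter cannot be told apart from genotype.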
